A study of Mus musculus with 8 samples.

Results

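The genes of the spliceosome's small nuclear ribonucleoproteins (snRNPs), of their associated factors and of the SR proteins were examined in mouse oocytes that lack CNOT7 and CNOT8, the catalytic deadenylases of the CCR4-NOT complex. Members were taken by name, as the rows whose symbol begins with Snrp, U2af, or Sf3a, Sf3b, Srsf or Prpf followed by a digit, without Snrpn and without names marked as pseudogenes. This gave 48 of the 46078 rows of the count table, or 47 gene symbols. The rule itself uses names only, but it was chosen with earlier results of these data known. Of these, 46 were tested, among 19241 tested genes in all. The remaining rows were a second Srsf1 row without a count in any library and Srsf12, which had between 0 and 4 counts per library.

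RNA was measured in 8 libraries of fully grown germinal vesicle (GV) stage oocytes, 4 of the genotype CNOT7&8 KO and 4 of the Zp3-Cre control, each made from 100 oocytes. In the KO, floxed Cnot7 and Cnot8 alleles were removed by Cre driven from the Zp3 promoter, which is active in growing oocytes. The control was the Zp3-Cre line, so both groups carried Cre. The females had a C57BL/6J background and were primed with PMSG, and neither the labels nor the methods say how many animals a library pooled. The labels name no culture or animal, so p-values measure the spread between these libraries, which may in part be technical.

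Most introns are removed by the major spliceosome. The U1 snRNP binds the 5′ splice site, U2AF binds the polypyrimidine tract and the 3′ splice site, and the U2 snRNP with its SF3a and SF3b subcomplexes takes the branch point. The U4/U6.U5 tri-snRNP then joins, and Prpf19 and other factors drive the activation of the machine. SR proteins bind exonic enhancers through RNA recognition motifs and recruit U1 and U2AF. A fully grown GV oocyte is transcriptionally silent and stores mRNAs, many with short poly(A) tails. The cytoplasmic polyadenylation element (CPE), which is bound by CPEB, controls the translation of a part of them.

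The CPE is the sequence element that the study follows, so it was searched for in the members' 3′UTRs, as the letters TTTTAT on the transcript strand of the longest annotated 3′UTR (GENCODE vM21, GRCm38). The CPE was found in 31 of the 46 tested members, or 67.4%, against 56.2% of 15125 tested protein-coding genes with a 3′UTR and 62.8% of those with a mean of 10 CPM (counts scaled to library size) or more. All 10 tested SR protein genes held it, as did 9 of 10 tri-snRNP and Prpf genes, 7 of 14 U2 and U2AF genes, 3 of 7 Sm genes and 2 of 5 U1 genes. The median 3′UTR was 1502 bases long in the SR protein genes and 1338 in the tri-snRNP and Prpf genes. It was 461 in the U2 and U2AF genes, 435 in the Sm genes and 519 in the U1 genes, and the CPE shares were not adjusted for length. The following 30-base windows show the copy nearest the 3′ end in members that were lower in the KO (Sf3b1, Sf3a3, Prpf8, Prpf31), higher (Srsf11, Srsf6, Prpf4b) or not called (U2af2), with the CPE in capitals.
Sf3b1, chr1:54985236-54985265, minus strand: gattttatttttTTTTATattgtattttta
Sf3a3, chr4:124732380-124732409, plus strand: gttttatctttgTTTTATattaaaaagatc
Prpf8, chr11:75509420-75509449, plus strand: caaaatgtaataaaTTTTATaaatagtgct
Prpf31, chr7:3641173-3641202, plus strand: gaaaggcagtgcTTTTATagaacgagtaca
Srsf11, chr3:158011137-158011166, minus strand: ttgataatgtacTTTTATttgatctcaagt
Srsf6, chr2:162936996-162937025, plus strand: acctacttcagtTTTTATgttcccactcct
Prpf4b, chr13:34905431-34905460, plus strand: acaaaatacataTTTTATggtatgtagcag
U2af2, chr7:5079674-5079703, plus strand: agcgtgtttataTTTTATggccaaactatt

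The last CPE lay 79 bases from the annotated 3′ end in Sf3b1, 63 in Sf3a3 and 10 in Prpf8, but 1296 in Prpf31, 676 in Srsf11, 616 in Prpf4b, 247 in U2af2 and 108 in Srsf6. A CPE within 100 bases of the annotated end was found in 10 of the 46 members (21.7%) and in 15.0% of the tested protein-coding genes. In 15 members, the longest 3′UTR held no CPE. These included Sf3b5, Snrpa1, U2af1 and U2af1l4, which were lower in the KO, and Sf3b6 and Snrpb, which were higher. The element was present in 4 of the 6 members that were higher, in 15 of the 24 that were lower and in 12 of the 16 that were not called. A match is a description of these letters and says nothing on binding.

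The members took between 0.445% and 0.472% of the counts of the control libraries and between 0.395% and 0.417% of those of the KO libraries. Total counts ranged from 14943671 to 44092144 in the control and from 8639444 to 26784110 in the KO, so that 3 counts, taken as the floor, corresponded to at most 0.326 CPM. The targeted gene Cnot8 was lower in every KO library, from 168 ± 20.01 to 35.2 ± 1.40 CPM (SD, n = 4 each). Cnot7 was lower by 0.38 on the log2 scale, a difference that was 0.09 with an adjusted p of 0.385 when libraries were scaled by their totals alone, and which of its exons were removed is not in the labels. The 16 oocyte markers summed to between 24997 and 28364 CPM in the control and between 19728 and 22896 in the KO. Of these, 11 were lower and 1 higher in the KO. Over all tested genes, 24.1% were lower and 31.2% higher. Of 16 granulosa and cumulus markers, 15 were tested, of which 6 were higher and 1 lower in the KO. The sum of the 16 was 141 to 180 CPM in the control and 222 to 299 in the KO. The higher markers were Fshr, Fst, Inha, Inhba, Kitl (16.0 to 43.4 CPM) and Nr5a2 (56.6 to 122 CPM). The lower marker was Cyp19a1 (58.5 to 31.3 CPM), and Foxl2 stayed at or below 0.109 CPM in every library. The 7 theca and stroma markers summed to at most 4.66 CPM in both groups. The 5 blood and immune markers summed to 0.749 to 1.83 CPM in the control and 3.04 to 5.12 in the KO, without overlap. Hba-a1 and Hbb-bs had no count, Lyz2 was not tested, and Cd68 (log2 fold change 1.46, adjusted p = 0.00141) and Ptprc (2.53, adjusted p = 0.0108) were higher. The part of these cells in the members' values was not tested.

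In CNOT7&8 KO oocytes, 24 of the 46 members were lower and 6 were higher than in the control, by edgeR's quasi-likelihood test at an adjusted p of at most 0.05. Over all tested genes, 24.1% were lower and 31.2% higher. Since abundant genes were more often lower, the members are better read beside the 8728 genes of 10 CPM or more, of which 41.9% were lower and 20.9% higher. In that range lay 43 members with the same 24 and 6 calls. The median log2 fold change of the members was −0.43, against 0.12 for all tested genes and −0.26 for those of 10 CPM or more. Among the 16 members of 100 CPM or more, 11 were lower and 0 higher. Of the 2414 genes of that range, 1333 were lower and 202 higher. The medians were −0.41 for these members and −0.37 for the genes of that range. In bulk libraries, fewer oocytes with an mRNA and less of it per oocyte cannot be told apart. CPM are also relative to the other mRNAs of a library. A lower value can thus come without a lower amount per oocyte, which was not measured.

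At least 2-fold differences were found for 5 members that were lower (Sf3b1, Prpf31, Sf3b5, U2af1l4 and Snrpa1) and 2 that were higher (Srsf11 and Snrpb), where 6.56% of all tested genes were lower and 23.8% higher by that rule, and 7.68% and 9.65% of those of 10 CPM or more. The groups did not overlap for 19 members with lower and 7 with higher values in the KO, where the shares were 21.4% and 27.0% over all tested genes and 37.6% and 18.5% over those of 10 CPM or more. How many members were called depended on the scaling. With library totals alone, 12 members were lower and 9 higher (13.6% and 40.2% of all genes), and the median of all genes moved from 0.12 to 0.41. The higher calls then made up 42.9% of the members' calls in place of 20%. Over genes of 10 CPM or more, that share moved likewise, from 33.3% to 57.7%. With trimmed mean of M-values (TMM) factors taken from genes of 10 CPM or more, 14 members were lower and 9 higher. Of the 8728 genes of that range, 2250 were then lower and 2709 higher. Some called members have exons that overlap those of another gene, and their counts carry that uncertainty. For Sf3b3, Snrpa1 and U2af1l4, an overlapping gene lies on the same strand. For others, among them Prpf31, Prpf39, Prpf4b, Sf3b2, Snrpd3 and Srsf1, the overlap is on the opposite strand only. Under all 5 scalings tried, 18 members were called in the same direction, namely Prpf4b, Sf3b6, Snrpb, Srsf11, Srsf6 and Srsf7 as higher, and Prpf19, Prpf31, Prpf38b, Prpf39, Sf3a3, Sf3b1, Sf3b2, Sf3b3, Snrpa1, Snrpe, U2af1 and U2af1l4 as lower.

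**Figure D1:**
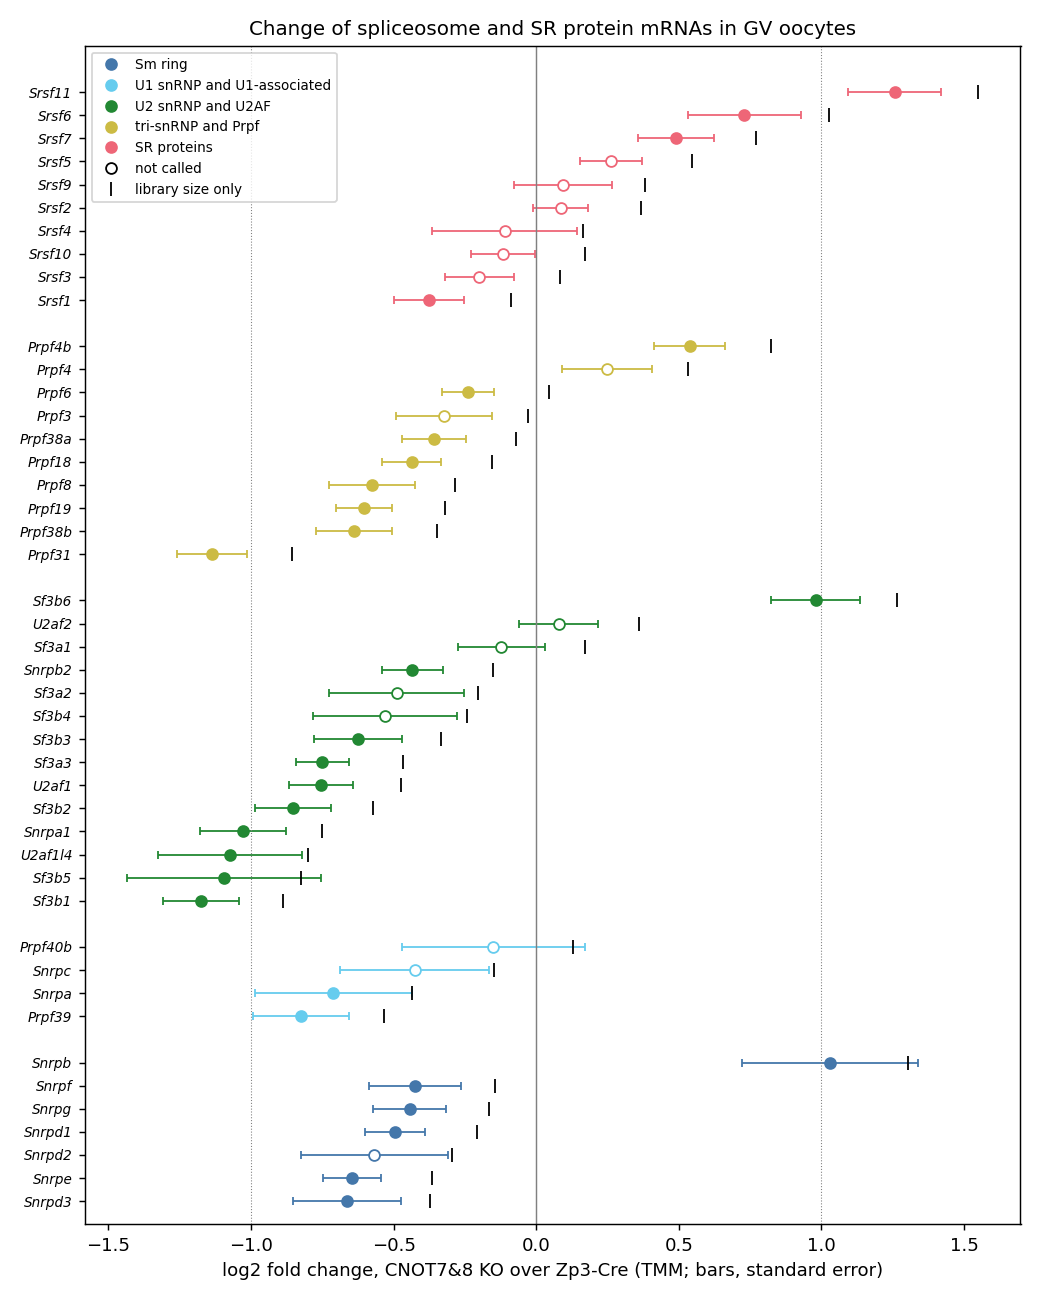
The log2 fold change of 45 of the tested members (x axis, CNOT7&8 KO over Zp3-Cre, TMM scaling, with its standard error) is plotted by role, filled where the adjusted p was at most 0.05, with a tick for the value under library totals alone. The U2 and U2AF genes lie mostly left of 0, with Sf3b6 at 0.98, and the SR protein genes are spread around 0, with Srsf11 at 1.26.

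The 7 genes of the Sm ring encode the proteins that encircle the U1, U2, U4 and U5 snRNAs. Of these, 5 were lower and Snrpb was higher, with a median log2 fold change of −0.50. Snrpd1 was the most abundant member per length, at 256 ± 27.6 CPM per kb of its longest coding transcript in the control (SD, n = 4), and fell to 182 ± 4.46 in the KO. Its CPM were 254, 204, 215 and 205 in control replicates 1 to 4 and 153, 154, 161 and 154 in the KO. The groups did not overlap, and the log2 fold change was −0.50 ± 0.10 (SE, adjusted p = 0.00159), but −0.21 with an adjusted p of 0.0645 by library totals alone.

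Snrpe had 114, 115, 129 and 126 CPM in the control and 77.5, 83.7, 74.2 and 73.8 in the KO. Every KO library was below every control, with a log2 fold change of −0.65 ± 0.10 (adjusted p = 0.000225). Snrpd3 showed the lowest fold change of the ring, from 16.4, 12.1, 10.003 and 11.6 CPM in the control to 9.56, 8.02, 6.78 and 7.63 in the KO (log2 fold change −0.66 ± 0.19, adjusted p = 0.0103). Snrpg (−0.44) and Snrpf (−0.42) were also lower, whereas Snrpd2 at −0.57 ± 0.26 did not pass (adjusted p = 0.0795). Leaving out any of 5 libraries ended the call of Snrpf. Processed copies of Snrpg that are at least 95% identical to it over at least 150 bases held counts equal to 28.5% of its own, so that its value is uncertain.

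Snrpb, which encodes the SmB and SmB′ proteins, went the other way. Its levels were 4.95, 11.6, 12.04 and 9.69 CPM in the control and 20.1, 18.7, 28.2 and 10.8 in the KO. The groups overlapped, as KO replicate 4 lay below control replicates 2 and 3, the log2 fold change was 1.03 ± 0.31 (adjusted p = 0.0136), and the call was lost without KO replicate 3 (0.80, adjusted p = 0.0587). Snrpb made up 1.42% ± 0.469 of the summed CPM per kb of the Sm genes in the control and 4.05% ± 1.30 in the KO, without overlap, a share that no scaling of the libraries can alter.

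Among the 5 genes of the U1 snRNP and its partners, 2 were lower, 0 were higher and the median was −0.43. Prpf39, a U1-associated factor, had 20.8, 14.0, 15.4 and 14.2 CPM in the control and 9.88, 8.18, 9.13 and 9.33 in the KO. All KO values were below all control values (log2 fold change −0.82 ± 0.17, adjusted p = 0.00136). Snrpa, which encodes U1-A, was lower by 0.71 ± 0.28 on the log2 scale, with overlapping groups and an adjusted p of 0.0443, and leaving out any of 6 libraries ended that call. Snrpc, the gene of U1-C, was at 24.8 ± 6.34 CPM per kb in the control. Its CPM were 15.5, 29.1, 28.3 and 27.5 in the control and 16.8, 16.9, 28.7 and 12.2 in the KO, and the difference did not pass (−0.43 ± 0.26, adjusted p = 0.183). Prpf40b, the least abundant tested member at 1.07 ± 0.334 CPM per kb, had 1.90, 4.34, 4.01 and 3.86 CPM in the control and 2.71, 3.30, 4.63 and 1.98 in the KO, which overlapped (−0.15 ± 0.32, adjusted p = 0.71).

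In the U2 snRNP and U2AF, the largest role, 9 of 14 members were lower, of which 4 passed 2-fold. Sf3b6 was the only higher gene, and the median was −0.69. Lower calls were 5 of 7 in the Sm ring and 7 of 10 in the tri-snRNP and Prpf role. Among genes of 10 CPM or more, 41.9% were lower. Sf3b1, the scaffold of SF3b and its largest subunit, had 882, 650, 677 and 654 CPM in the control and 334, 348, 259 and 329 in the KO. It held the highest CPM of the members in the control, and each KO library had less than every control. The log2 fold change was −1.17 ± 0.13 (adjusted p = 1.9e-05), and −0.89 by library totals alone. Sf3b1 had 6 CPE copies in its 3′UTR, the last of which is shown above.

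Sf3b2 (−0.85 ± 0.13, adjusted p = 0.000196) and Sf3b3 (−0.63 ± 0.15, adjusted p = 0.00447) followed. Sf3b2 had 125, 164, 128 and 146 CPM in the control against 81.7, 77.5, 89.2 and 63.8 in the KO. Sf3b3 had 365, 243, 222 and 248 CPM in the control against 180.5, 164, 155 and 199 in the KO. Neither pair of groups overlapped. Sf3b5, a small SF3b subunit, had 15.3, 42.3, 39.7 and 34.2 CPM in the control and 18.2, 15.0, 21.3 and 7.32 in the KO. Its groups overlapped through the low value of control replicate 1 (log2 fold change −1.09 ± 0.34, adjusted p = 0.0161), and without KO replicate 2 the adjusted p was 0.0502. Sf3b4 at −0.53 ± 0.25 did not pass (adjusted p = 0.0924).

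Sf3b6, also known as p14, contacts the branch point adenosine, and it was the exception among the SF3b genes. Its levels were 19.3, 16.1, 21.2 and 13.0 CPM in the control and 32.9, 34.2, 33.2 and 37.0 in the KO. All KO libraries lay above all controls, with a log2 fold change of 0.98 ± 0.16 (adjusted p = 0.000242). The ratio of Sf3b6 to Sf3b1 CPM within a library was 0.0199 to 0.0312 in the control and 0.0985 to 0.128 in the KO, a mean that was 4.48 times as high. Of the summed SF3b CPM per kb, Sf3b1 made up 46.5% ± 2.67 in the control and 33.8% ± 3.30 in the KO, and Sf3b6 made up 5.96% ± 1.27 and 19.2% ± 1.04, in both cases without overlap. The pair was chosen after its values were seen, so no test is given.

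In SF3a, Sf3a3 was the most abundant gene of the U2 role per length (135 ± 3.72 CPM per kb in the control). It had 253, 247, 246 and 236 CPM in the control and 141, 155, 142 and 146 in the KO, which did not overlap (log2 fold change −0.75 ± 0.09, adjusted p = 3.26e-05). Sf3a1 at −0.12 ± 0.15 (adjusted p = 0.515) and Sf3a2 at −0.49 ± 0.24 (adjusted p = 0.0975) did not pass. Sf3a1 made up 16.0% ± 2.95 in the control and 22.8% ± 1.71 in the KO of the summed SF3a CPM per kb, without overlap, while Sf3a3 went from 81.2% ± 2.73 to 74.1% ± 1.43.

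Snrpa1, which encodes the U2-specific protein U2-A′, had 57.2, 71.8, 66.1 and 66.8 CPM in the control and 38.5, 36.0, 29.4 and 24.9 in the KO. The groups were apart, with a log2 fold change of −1.03 ± 0.15 (adjusted p = 0.000123). Exons of Snrpa1 overlap those of Gm45213 on the same strand. The partner of Snrpa1, Snrpb2, the gene of U2-B″, was lower as well (−0.43 ± 0.11, adjusted p = 0.00435).

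Of the U2AF genes, U2af1 and U2af1l4 were lower and U2af2 was not called, and the difference between them was not tested. U2af1, the small subunit that reads the AG of the 3′ splice site, had 107, 128, 125 and 119 CPM in the control and 69.4, 74.9, 77.3 and 62.9 in the KO, without overlap (log2 fold change −0.75 ± 0.11, adjusted p = 0.00013). U2af1l4, a paralog of U2af1, had 50.6, 108, 98.8 and 99.2 CPM in the control and 41.7, 43.2, 58.1 and 26.7 in the KO. Only control replicate 1 reached into the KO range (−1.07 ± 0.25, adjusted p = 0.00346). Exons of U2af1l4 overlap those of Gm49396 on the same strand and those of Psenen on the opposite strand. Psenen could share reads with U2af1l4 if counting did not use the strand, and Gm49396 in either case. U2af2, the large subunit that binds the polypyrimidine tract, had 112, 136, 125 and 122 CPM in the control and 138, 116, 163 and 106 in the KO. Those ranges overlapped, and the difference of 0.08 ± 0.14 did not pass (adjusted p = 0.649). U2af2 was at 0.994 to 1.06 times the CPM of U2af1 in the control and at 1.55 to 2.11 times in the KO, and its share of the summed U2AF CPM per kb was 21.04% ± 2.16 and 34.0% ± 2.28.

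**Figure D2:**
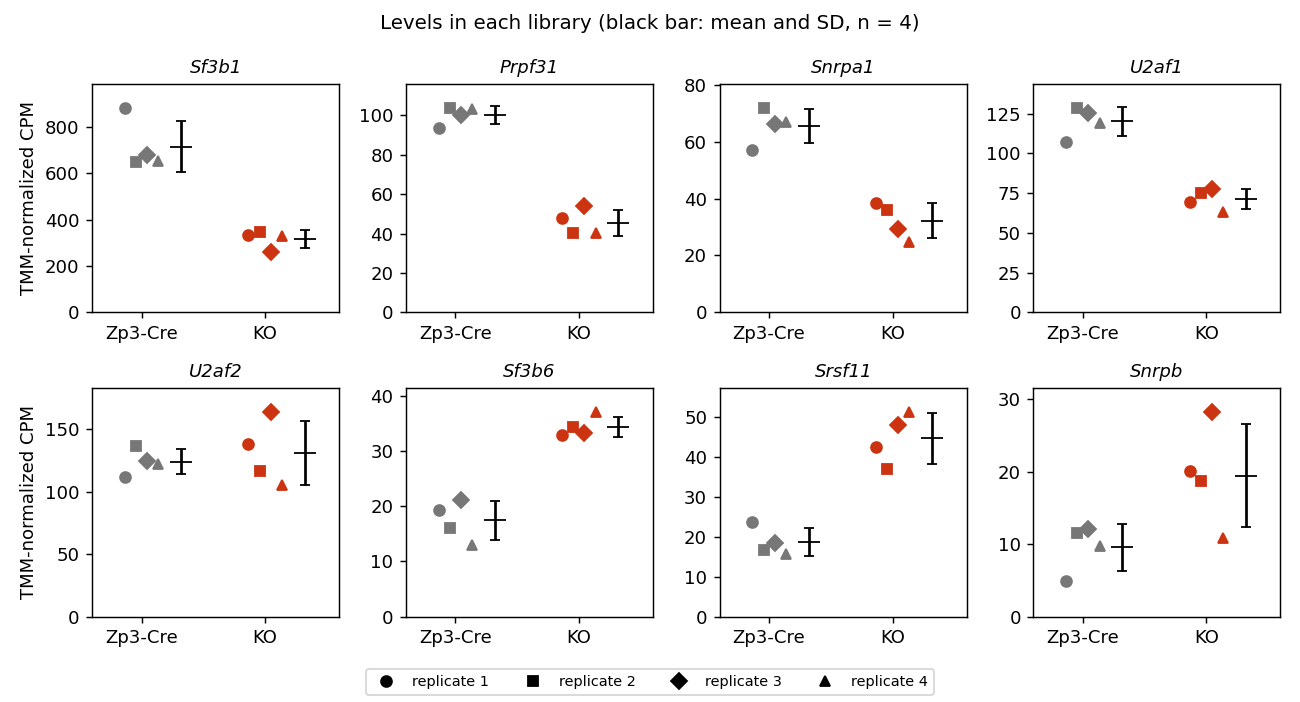
TMM-normalized CPM (y axes, from 0) of 8 members are plotted for each of the 4 Zp3-Cre (grey) and 4 KO (red) libraries, with a marker per replicate number and a black bar for the mean and SD. Sf3b1, Prpf31, Snrpa1 and U2af1 are lower in every KO library, Sf3b6 and Srsf11 are higher in every KO library, and the groups overlap for U2af2 and Snrpb.

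**Figure D3:**
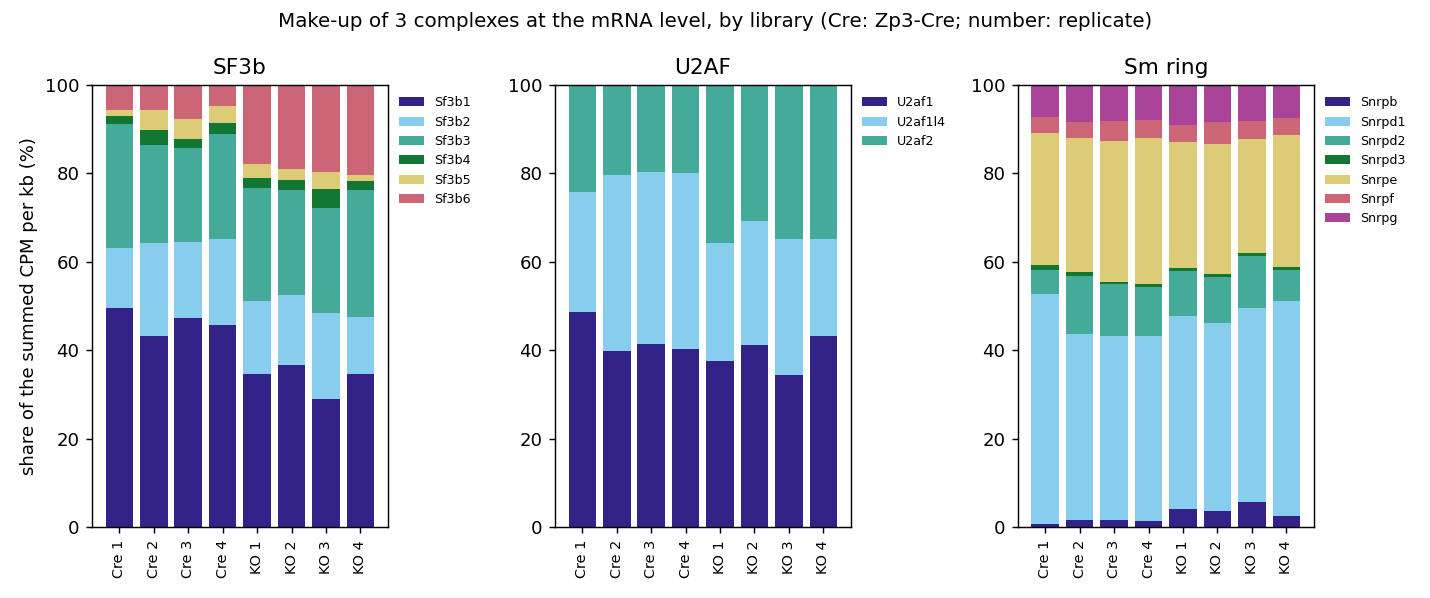
Stacked bars show the percentage of the summed CPM per kb (y axis, 0 to 100) that each SF3b, U2AF and Sm ring gene took in each library (x axis). The Sf3b6 share is 4.78 to 7.76 in the control and 17.96 to 20.4 in the KO libraries.

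Of the 10 genes of the tri-snRNP and the other Prpf factors, 7 were lower and 1 was higher, with a median of −0.40. Prpf31, which holds U4/U6 and U5 together in the tri-snRNP, had 93.5, 104, 99.9 and 103 CPM in the control and 48.0, 40.3, 53.7 and 40.1 in the KO. Each KO value was below the lowest control (log2 fold change −1.14 ± 0.12, adjusted p = 1.34e-05). Prpf38b (−0.64 ± 0.13, adjusted p = 0.00147) and Prpf19 (−0.60 ± 0.10, adjusted p = 0.000282), a ubiquitin ligase that names its own activation complex, were also lower. Prpf38b had 121, 95.5, 83.6 and 86.03 CPM in the control and 64.4, 64.2, 56.6 and 63.05 in the KO. Prpf19 had 105, 102.9, 98.1 and 104 CPM in the control and 68.7, 64.98, 71.9 and 64.7 in the KO. Neither gene's groups overlapped.

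Prpf8, the U5 protein at the catalytic core, was lower by 0.58 on the log2 scale (SE 0.15, adjusted p = 0.00647), with KO replicate 4 at 358 CPM above the lowest control of 349. Prpf18 was lower as well (−0.44 ± 0.10, adjusted p = 0.00368). Prpf38a was the most abundant of the role per length (105 ± 12.9 CPM per kb in the control). It had 188, 148, 152 and 146 CPM in the control and 132, 123, 113 and 127 in the KO, which did not overlap (−0.36 ± 0.11, adjusted p = 0.0167), though library totals alone gave −0.07 with an adjusted p of 0.517. Prpf6, a U5 protein, was at −0.24 ± 0.09 (adjusted p = 0.0423), and this turned to 0.05 by library totals alone. Prpf3 (−0.32) and Prpf4 (0.25), both of the U4/U6 snRNP, did not pass, with adjusted p of 0.118 and 0.201.

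Prpf4b, a kinase that associates with the tri-snRNP, was the only higher gene of this role. It had 92.6, 74.0, 83.5 and 65.0 CPM in the control and 112, 114, 107 and 124 in the KO. No KO library reached down to the control range (log2 fold change 0.54 ± 0.12, adjusted p = 0.00301). The Prpf4b to Prpf31 ratio was 0.631 to 0.99 in the control and 1.99 to 3.10 in the KO. These genes had the highest and lowest fold change of the role, so their ratio restates those changes and was not tested.

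**Figure D4:**
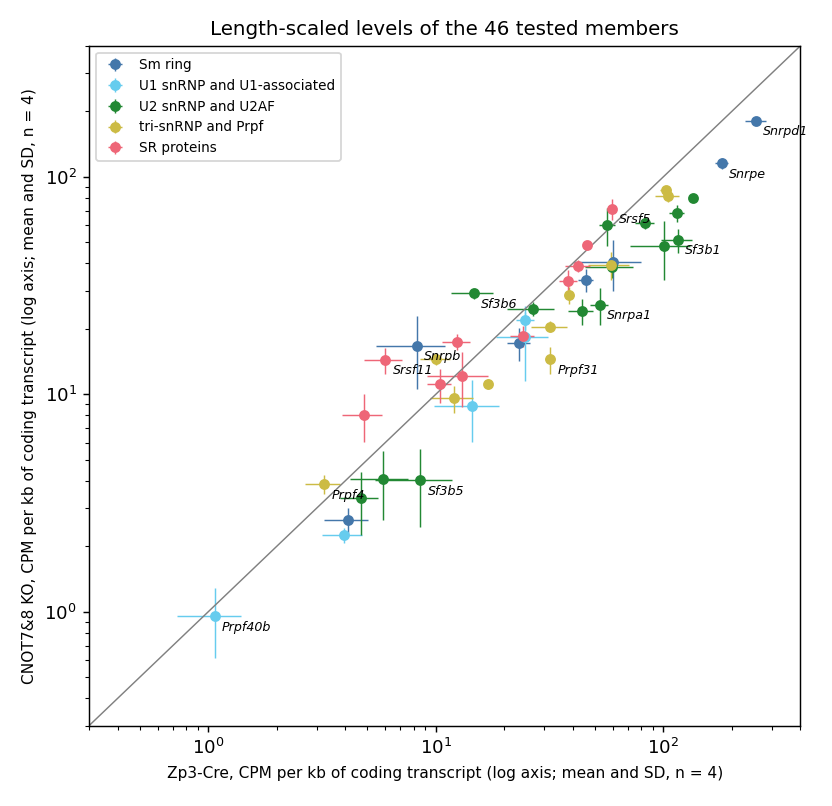
The mean CPM per kb of coding transcript in the KO (y axis, log scale) is plotted against that in Zp3-Cre (x axis, log scale) for the 46 tested members, colored by role, with SD bars (n = 4) and a line of equal level. Of these, 35 lie below the line, and Sf3b6, Srsf11 and Snrpb lie above it.

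Of the 10 tested SR protein genes, 3 were higher and 1 was lower, with a median of 0.09. Among genes of 10 CPM or more, 20.9% were higher and 41.9% lower. Whether the roles differ was not tested. By library totals alone, 5 SR protein genes were higher and 0 lower, beside 2769 and 2032 of the 8728 genes of 10 CPM or more. Srsf11, an SR-related factor of the family, showed the largest rise of the members. It had 23.7, 16.7, 18.4 and 15.7 CPM in the control and 42.5, 36.9, 48.1 and 51.2 in the KO. The groups were well apart (log2 fold change 1.26 ± 0.16, adjusted p = 4.86e-05).

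Srsf6 had 21.9, 13.6, 16.2 and 16.8 CPM in the control and 22.4, 22.3, 34.8 and 34.0 in the KO. Control replicate 1 came within 1 CPM of the lowest KO value without reaching it (0.73 ± 0.20, adjusted p = 0.00789). Srsf7 had 27.9, 26.3, 35.7 and 29.5 CPM in the control and 42.9, 41.3, 45.9 and 37.3 in the KO, also without overlap (0.49 ± 0.13, adjusted p = 0.00803). Both encode shuttling SR proteins that regulate alternative exons.

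Srsf1, the founding SR protein, was the only lower gene of the family, with 151, 122, 126 and 116 CPM in the control and 95.1, 115.7, 89.9 and 97.2 in the KO. Its highest KO value lay just under its lowest control (log2 fold change −0.38 ± 0.12, adjusted p = 0.0196), and by library totals alone it was at −0.09 with an adjusted p of 0.501. Srsf5, the most abundant of the family per length at 59.6 ± 2.19 CPM per kb in the control, had 88.7, 95.1, 93.6 and 96.6 CPM there and 101, 104, 128 and 115 in the KO. All KO values were above all controls, yet the test was not passed (0.26 ± 0.11, adjusted p = 0.0573). Srsf2 was also without overlap, at 82.6 to 90.7 CPM in the control and 91.4 to 95.1 in the KO, with a log2 fold change of 0.09 ± 0.10 (adjusted p = 0.466). Srsf3 (−0.20), Srsf4 (−0.11), Srsf9 (0.09) and Srsf10 (−0.12) did not pass, with adjusted p between 0.178 and 0.73. The Srsf11 to Srsf1 ratio went from 0.135 to 0.157 in the control to 0.319 to 0.535 in the KO. This pair, too, joins the highest and lowest fold change of its role, and the ratio was not tested.

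Annotation features played no part in the choice of members. A transcript annotated as a target of nonsense-mediated decay was found for 24 of the 46 members (52.2%), against 25.9% of the tested protein-coding genes and 30.2% of those of 10 CPM or more. It was found for 9 of 10 SR protein genes, for 5 of the 6 members that were higher and for 10 of the 24 that were lower. Gene-level counts do not separate such transcripts from the coding ones. The median of the longest 3′UTRs was 628 bases for the members and 1119 for the tested protein-coding genes.

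The deepest library of each group, control replicate 1 and KO replicate 4, deviated from its group alike, in genes at large as in the members. Over 8395 tested protein-coding genes of 10 CPM or more, the deviations of both libraries were correlated with r = 0.822, and with GC content at r = −0.598 and −0.546. Across the 46 members, the deviation of control replicate 1 from the other controls and that of KO replicate 4 from the other KO libraries were correlated (Pearson's r = 0.936, across genes of the same 8 libraries), and both went with the GC content of the transcript (r = −0.474 and −0.477). Prpf40b, Sf3b5, Snrpa, Snrpb, Snrpc, Snrpd2, Srsf4 and U2af1l4 were more than 0.7 below the other controls on the log2 scale in control replicate 1, and all 8 had their lowest KO value in KO replicate 4. Without both libraries, the members again gave 24 lower and 6 higher calls, Sf3b5 stood at −1.09 (adjusted p = 3.53e-05), U2af1l4 at −1.09 (adjusted p = 8.03e-06) and Snrpb at 1.01 (adjusted p = 0.000316). Snrpd2 was then lower (−0.61, adjusted p = 0.000223), and Snrpf no longer passed (adjusted p = 0.0519).

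**Figure D5:**
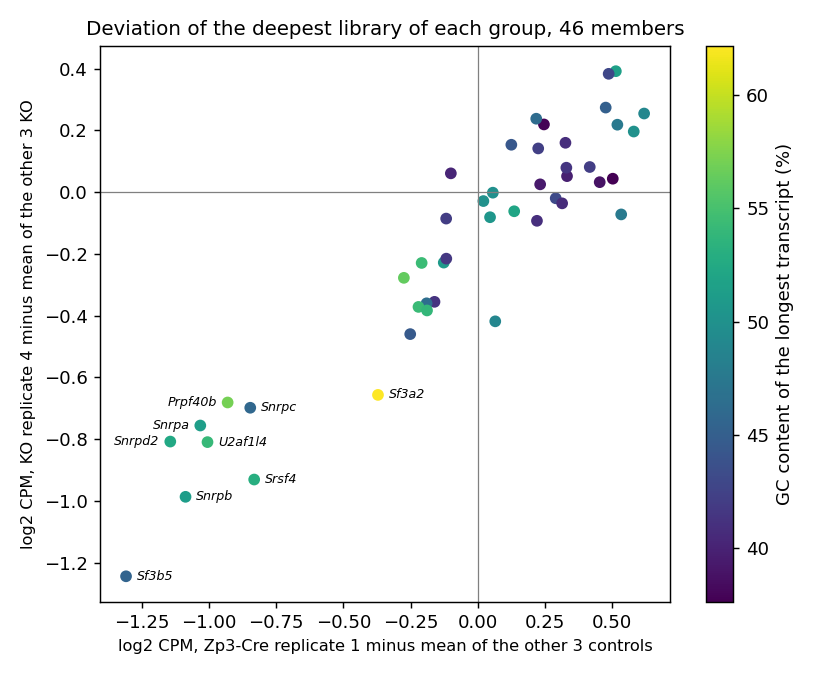
For each of the 46 tested members, the log2 CPM of KO replicate 4 minus the mean of the other 3 KO libraries (y axis) is plotted against that of Zp3-Cre replicate 1 minus the mean of the other 3 controls (x axis), colored by GC content. The 8 genes at the lower left deviate downward in both libraries.

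Of 96 other tested splicing genes, on lists drawn up from textbook membership and not filtered by level, 47 were lower and 18 higher. The shares were 24.1% and 31.2% over all tested genes, and 41.9% and 20.9% over genes of 10 CPM or more. The only higher Snrnp gene, Snrnp35 (1.29 CPM in the control, 2.61 in the KO), and the only higher kinase, Srpk3 (0.811 and 2.49), lay below 10 CPM. Of the 5031 genes with a mean of 1 to under 10 CPM, 788 were lower and 2218 higher. By library totals alone, 27 of the 96 splicing genes were lower and 26 higher. The counts were then 2032 and 2769 of the 8728 genes of 10 CPM or more. Over all tested genes, the shares were 13.6% and 40.2%. Of the 7 LSm genes, which form the ring on U6, 5 were lower and 0 higher (median −0.40), among them Lsm7 at −1.58 (adjusted p = 0.00163). Of the 7 tested genes named Snrnp, 4 were lower and 1 higher (median −0.62), with Snrnp200, the U5 helicase that unwinds U4/U6, at −0.93 (adjusted p = 9.8e-05). Of 10 splicing helicases, 5 were lower and 0 higher (median −0.45), but 5 lower and 4 higher by library totals alone, among the latter Aqr, Ddx5, Ddx42 and Dhx8. Of the 17 genes of the Prpf19 complex and the step factors, 12 were lower and 2 higher (median −0.51), with Xab2 at −1.26 and Cdc5l, a core subunit of that complex, at 1.10 (adjusted p = 0.00463).

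Of the 7 kinases of SR proteins, 3 were lower and 1 higher (median −0.44). Srpk1, the most abundant of them in CPM, went from 697 to 343 CPM (−1.02, adjusted p = 7e-06). Of 10 SR-related proteins, 4 were lower and 2 higher (median −0.33), the higher genes being the splicing activators Tra2a at 1.47 (adjusted p = 1.7e-05) and Tra2b at 0.91 (adjusted p = 3.2e-05). Of 25 hnRNP genes, 9 were lower and 6 higher (median −0.16), with Pcbp1 at −1.53, and library totals alone turned the balance to 4 lower and 9 higher. Of the 13 tested genes of snRNP assembly, 5 were lower and 6 higher (median 0.12), with Tgs1, which hypermethylates the snRNA cap, at 1.84 (adjusted p = 5.6e-05) and Smn1 at −0.63 (adjusted p = 0.00335). By library totals alone, 1 of them was lower and 7 were higher. Counts of lower and higher genes were then 3 and 0 for the LSm genes, 3 and 1 for the Snrnp genes, 8 and 2 for the Prpf19 complex and step factors, 2 and 1 for the kinases and 1 and 2 for the SR-related proteins. On that scale, Smn1 at −0.35 did not pass (adjusted p = 0.0878), while Tra2a, Tra2b, Tgs1, Srpk1, Pcbp1 and Snrnp200 kept their calls.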

How the data were processed

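Total RNA of 100 GV oocytes per library was made into libraries with the TruSeq Stranded mRNA LT kit and sequenced as 150-base read pairs. The paper describes the purification of mRNA in this kit as a depletion of ribosomal RNA. Within the nf-core/rnaseq pipeline, reads were mapped to GRCm38 with STAR, for which the submitters' processing notes name version 2.6.1d, beside edgeR 3.11. The table deposited by the authors holds raw counts of reads for each gene and library, neither normalized nor pooled. The counting step of that pipeline, its annotation release and its strand setting are not given in the sources used here. Counts of overlapping genes and near-identical copies are therefore uncertain. Exons of 15 members overlap those of another gene on either strand. A copy at least 95% identical over at least 150 bases exists for 14 members.

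For the present analysis, edgeR 4.0.16 was used in R 4.3.3. A gene was tested if 0.2 CPM was reached in 2 libraries. The 4 KO libraries were compared with the 4 controls after TMM scaling, by the quasi-likelihood test of edgeR, with p adjusted (Benjamini-Hochberg) over all 19241 tested genes and calls at an adjusted p of at most 0.05. CPM stands for counts scaled to the TMM-adjusted library size. Alternatives included the exact test of edgeR, DESeq2 1.42.0, further scalings and low-count filters, the replicate number as a block, and the removal of libraries. The tests were first tested on simulated data in which a small part of the genes was changed, at random up or down. That setting does not probe the choice of scaling.

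Lengths, GC content and 3′UTRs came from GENCODE vM21, which held 98.2% of the gene identifiers and all 46 tested members, and copies from BLAST 2.17.0. Levels are per kb of the longest protein-coding transcript, a length chosen after values per union of exons had been seen. Floors cover counting error only.

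Values in every library are given for members past 2-fold, for the highest and lowest fold change and the highest level of each role, for U2af1 and U2af2, and for members called under all 5 scalings. The other splicing genes that are named were picked with their values in view. The values of 1 tested member are not reported here. The members and lists were chosen with earlier results of these data known. Figures were made with matplotlib 3.10.9 in Python 3.11.15.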

Additional observations from a re-analysis of the deposited data

Results flagged for a closer look

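In 5 of 54 groups of 4 libraries (27 members), a single library stood apart from the other 3 by Dixon's test at the 95% level, which chance meets in about 1 in 20 groups, or 2.7 here. Sf3b1 was at 881.6 CPM in Zp3-Cre replicate 1 and between 650.1 and 677.4 in the other controls. Prpf38a was at 187.6 CPM in that library and between 146.2 and 152.3 in the others. U2af1l4 was at 50.58 CPM there against 98.8 to 108.2, and Snrpc was at 15.53 CPM against 27.53 to 29.12. Snrpd1 was at 161.5 CPM in CNOT7&8 KO replicate 3, against 153.1 to 154.4. Of these 5 values, 4 were thus from Zp3-Cre replicate 1, the deepest control, whose deviations are given above.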

How the results depend on the processing

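The 18 members called under all scalings were picked by that rule, so their unchanged direction is not a separate result. The counts of calls depended on the scaling. By library totals alone and by TMM on genes of 10 CPM or more, respectively, 12 and 14 members were lower, 0 and 0 of them 2-fold, and 2618 and 2865 of all genes (587 and 628 of them 2-fold). Lower calls were then 1 and 2 in the Sm ring, 1 and 1 for U1, 3 and 4 for the tri-snRNP and 0 and 0 for SR proteins, and higher calls were 2 and 2 for the tri-snRNP and 5 and 5 for SR proteins. Library totals alone gave 4 members that were 2-fold higher. The medians were 0.41 and 0.37 for all genes and −0.15 and −0.18 for the members. Upper quartile scaling gave medians of 0.22 and −0.34, 3 members that were 2-fold lower, 1 lower U1 gene and 0 lower SR protein genes. Requiring 1 CPM in 4 libraries left 2882 genes that were 2-fold higher, 1 lower U1 gene and medians of −0.012 for all genes and −0.36 for the members, since it tested fewer low genes. Without a filter, the median of all genes was 0.39. With any annotated 3′UTR, 57.7% of all protein-coding genes held a CPE.

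Members that were near 0 turned positive by library totals alone and by TMM on genes of 10 CPM or more, namely Sf3a1 (0.17 and 0.14), Prpf40b (0.13 and 0.081), Srsf3 (0.083 and 0.053), Prpf6 (0.046 and 0.012), Srsf4 (0.16 and 0.12) and Srsf10 (0.17 and 0.14). Leaving out 1 library at a time, members that were 2-fold lower numbered 2 to 5 (2 without Zp3-Cre replicate 2 or KO replicate 4), higher Sm genes 0 to 1 (0 without KO replicate 3) and lower U1 genes 1 to 3, and the medians were 0.10 to 0.17 for all genes and −0.43 to −0.35 for the members. The log2 fold change then ranged from −0.23 to 0.045 for Sf3a1, from −0.39 to 0.052 for Prpf40b, from −0.29 to 0.087 for Srsf4 and from −0.026 to 0.18 for U2af2. Of the 30 called members, 25 kept their call without each library in turn, the others being Prpf6, Sf3b5, Snrpa, Snrpb and Snrpf.

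No pairing by replicate number was seen, as the correlations of same-numbered libraries ran from −0.238 to 0.207. Control replicate 1 and KO replicate 4, the deepest libraries, were correlated at 0.525. Such deviations could hide a pairing, so this check cannot exclude it. With the number as a block, 22 members were lower and 6 higher, Snrpf and Prpf6 no longer passing. DESeq2 and the exact test each kept the call or its absence of 44 of the 45 members shown one by one. With the union of exons as length, the most abundant member per length was Srsf2 for SR proteins and Prpf6 for the tri-snRNP, and that of U1 changed as well, an alternative added after seeing the data.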
